A study of Mus musculus with 2 samples.

Results

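The genes examined were 9 junction genes of the blood-testis barrier, *Cldn11*, *Cldn3*, *Cldn5*, *Ocln*, *Tjp1*, *F11r*, *Jam3*, *Gja1* and *Cdh2*, chosen by symbol out of 39695 gene entries. All 9 were matched by Ensembl identifier to GENCODE M21 on GRCm38, the build named mm10 in the labels, and all are protein-coding. Their RNA levels were compared between control and *Bcas2*F/-;*Vasa-Cre* mice, named mutant from here on, with 1 RNA-seq library of P9 (9 days old) testes for each. Past a threshold of 1.5-fold, 0 of the 9 members were lower in mutant testes and 0 were higher. Of all genes tested, 1.69% lay beyond it on the lower side and 1.57% on the higher side. At such shares, a count of 0 among 9 genes is no result about the members. *Gja1*, *Cdh2* and *F11r* were 15.6%, 15.2% and 11.4% higher in mutant testes, *Cldn5* had 7.87 RPKM against 9.12 RPKM in control, and *Cldn11*, the most abundant of the 9, differed by 1.20%.

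The blood-testis barrier is built by Sertoli cells, the somatic cells that enclose the germ cells in the seminiferous tubule. Tight junctions, adherens junctions, gap junctions and actin bundles lie together near the base of neighbouring Sertoli cells and divide the tubule, with spermatogonia below the barrier and meiotic spermatocytes above it. Claudins and occludin seal the space between the cells, junctional adhesion molecules sit beside them, zonula occludens scaffolds tie them to actin, a cadherin holds the adherens junction and connexin channels couple the cells. The barrier is completed in juvenile life, at about the time when the first spermatocytes pass into meiosis, so testes of this age hold a barrier that is still forming.

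All males, controls too, had 1 deleted and 1 floxed copy of *Bcas2* (*Bcas2*F/-). Only mutant males had *Vasa-Cre*, a transgene whose promoter drives Cre in germ cells rather than in the Sertoli cells that build the barrier. The labels give C57BL/6 as the strain, whereas the study's methods describe a mixed background, and the number of mice behind each library was not given in the sources used here. RNA came from whole testes, so fewer cells of a type and less RNA per cell cannot be told apart. Values are RPKM, read counts that the authors divided by gene length and by the size of the library. The steps between the RPKM values gave back whole reads, with library sizes of 19918750 reads in control and 19331687 in mutant. These are the sizes that RPKM was divided by, and both lie below the mapped reads that the study reports. The values alone do not say whether they count reads or read pairs. *Bcas2* itself, the deleted gene, had 39.5 RPKM in control and 25.7 RPKM in mutant testes, from 1410 and 888 reads. As each genotype had 1 library, the differences have no replicate check and no test was made. Each 95% interval below is a Clopper-Pearson interval of the RPKM ratio without a pseudocount, and it covers counting error only.

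In control testes the levels ran from 0.914 RPKM for *Cldn3* to 232 RPKM for *Cldn11*, a 253-fold range. In mutant testes they ran from 1.15 to 234 RPKM, a 204-fold range. The order was the same in both libraries, *Cldn11* first and then *F11r*, *Gja1*, *Jam3*, *Tjp1*, *Ocln*, *Cdh2*, *Cldn5* and *Cldn3*. Of the 8 pairs of neighbours in this order, 1 had overlapping ranges over the libraries, *F11r* (193 and 214 RPKM) and *Gja1* (169 and 195 RPKM). The 3 most abundant members made up 74.4% of the summed 797 RPKM of all 9 in control and 75.3% of 856 RPKM in mutant testes. The genes tested were the 14831 whose mean RPKM reached 1, and 2.33% of them had a higher mean level than *Cldn11*. *Cldn3* stood at the other end, just inside that minimum, with 99.5% of the genes tested above it.

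**Figure D1:**
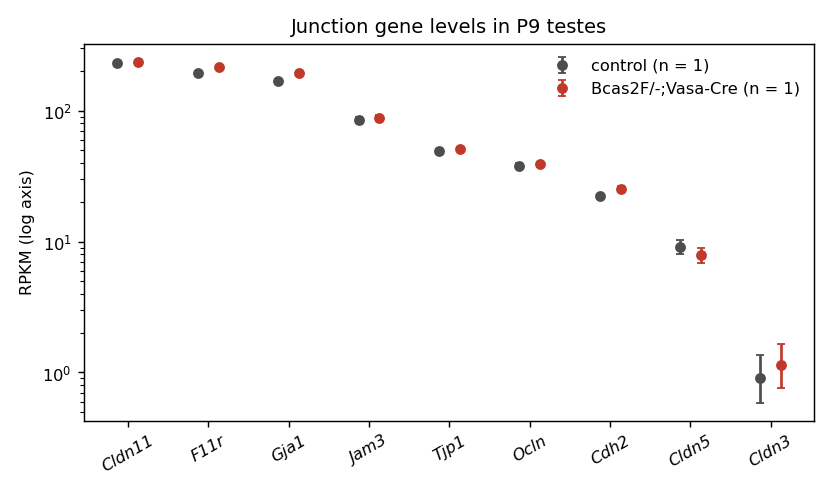
RPKM (log axis) of the 9 junction genes in the control library (grey) and the mutant (Bcas2F/-;Vasa-Cre) library (red), 1 library each, with bars for 95% Poisson intervals that cover counting error only. Levels ran from 0.914 RPKM for Cldn3 to 234 RPKM for Cldn11, in the same order in both libraries.

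Of the claudins, the multi-pass membrane proteins that form the strands of the tight junction, *Cldn11* is the one on which the Sertoli cell strands depend. The gene (ENSMUSG00000037625) lies on the plus strand at chr3:31149920-31164324. Its level was 232 RPKM in control and 234 RPKM in mutant testes, from 8507 and 8355 reads. The 2 libraries were thus almost level, with a log2 ratio of RPKM + 1 in mutant over control of 0.02 and an interval from -0.03 to 0.06. This is the narrowest interval among the claudins, and 49.6% of the genes tested had a higher log2 ratio than *Cldn11*.

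*Cldn5* (ENSMUSG00000041378), at chr16:18776847-18778262 on the plus strand and made of a single exon, is a claudin of endothelial cells that is also found at Sertoli cell junctions. It had 9.12 RPKM in control and 7.87 RPKM in mutant testes, from 257 and 215 reads. It was the only member with the lower value in mutant testes, at a log2 ratio of -0.19, but its interval from -0.48 to 0.05 held 0. The 9 endothelial markers, among them *Cdh5*, *Pecam1* and *Tek*, had a median log2 ratio of -0.08, with 6 of 9 below 0 and summed levels of 93.3 and 85.0 RPKM in control and mutant testes. They ran from -0.38 for *Egfl7*, with 17.4 and 13.1 RPKM, to 0.08 for *Kdr*, with 5.60 and 5.99 RPKM. Their part in the *Cldn5* value was not tested.

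*Cldn3* (ENSMUSG00000070473), a single-exon gene at chr5:134986214-134987472 on the plus strand, is a claudin of newly assembling barrier segments. It had 0.914 RPKM from 23 reads in control and 1.15 RPKM from 28 reads in mutant testes, and reached the minimum mean of 1 RPKM only through the latter. The interval of its log2 RPKM ratio ran from -0.52 to 1.19, which holds 0 as well as a level 1.5-fold higher (0.585), so neither could be told from the other at this depth. Of its exon bases, 3.18% overlap the antisense gene *Wbscr25*, which had 0.0976 and 0.067 RPKM. Among the other claudins, 5 of 18 listed genes reached a mean RPKM of at least 1.

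The sequences before these 3 claudin genes are shown because each has a single annotated transcript and they include the members with the highest and the lowest level. RefSeq promoter windows (GRCm38.p6) matched 7 of the 9 members, and *Jam3* and *Cdh2* did not match. Each line gives the 250 bases before the annotated start on the gene's strand, 5′ to 3′, chr3:31149670-31149919 for *Cldn11*, chr16:18776597-18776846 for *Cldn5* and chr5:134985964-134986213 for *Cldn3*.
Cldn11: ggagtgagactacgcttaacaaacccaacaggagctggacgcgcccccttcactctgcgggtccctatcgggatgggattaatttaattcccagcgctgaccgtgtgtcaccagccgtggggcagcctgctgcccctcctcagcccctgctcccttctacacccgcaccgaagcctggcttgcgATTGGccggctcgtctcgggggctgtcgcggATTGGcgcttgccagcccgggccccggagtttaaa
Cldn5: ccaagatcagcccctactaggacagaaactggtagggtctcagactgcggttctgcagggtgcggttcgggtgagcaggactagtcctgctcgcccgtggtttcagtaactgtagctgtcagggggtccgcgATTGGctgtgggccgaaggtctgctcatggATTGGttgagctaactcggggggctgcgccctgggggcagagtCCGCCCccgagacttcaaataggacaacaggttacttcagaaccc
Cldn3: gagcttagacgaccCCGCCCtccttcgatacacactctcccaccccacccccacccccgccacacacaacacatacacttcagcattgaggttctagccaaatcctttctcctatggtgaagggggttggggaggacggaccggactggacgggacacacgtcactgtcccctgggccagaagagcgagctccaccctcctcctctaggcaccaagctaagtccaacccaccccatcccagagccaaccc

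Capitals mark matches on either strand to 5 short motifs. The TATA box was searched as TATAAA. The GC box was searched as GGGCGG and the CCAAT box by its name. The SOX motif was AACAAT. The hormone receptor half-site was AGAACA. On the strand printed, the CCAAT box matches read ATTGG. The GC box matches read CCGCCC on it. No matches overlapped. *Cldn11* held 2 matches, both to the CCAAT box on the minus strand, 66 to 62 and 35 to 31 bases before the start. *Cldn5* held 2 CCAAT boxes and 1 GC box, and *Cldn3* held 1 GC box. Over all 32851 promoter windows of this length, 33.8% held the CCAAT box, 32.7% the GC box, 16.1% the hormone receptor half-site, 12.4% the TATA box and 9.42% the SOX motif. The GC content was 63.6% for *Cldn11*, 59.6% for *Cldn5* and 60.8% for *Cldn3*, above the median of 52.4% over all windows, and the windows held 19, 12 and 9 CG dinucleotides. These letters are a description of the windows, and no factor's binding was measured.

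Occludin, encoded by *Ocln* (ENSMUSG00000021638) at chr13:100496507-100552718 on the minus strand, is the other sealing protein of the strands. Its level was 38 RPKM in control and 38.8 RPKM in mutant testes, 2.05% higher, from 1769 and 1752 reads. The log2 ratio of RPKM + 1 was 0.03, and the interval from -0.07 to 0.13 held 0. *Tjp1* (ENSMUSG00000030516), at chr7:65296165-65527781 on the minus strand, encodes the zonula occludens scaffold that binds claudins and occludin on one side and actin on the other. It had 48.9 and 50.8 RPKM in control and mutant testes, from 3470 and 3495 reads. Its log2 ratio of 0.05 was the middle value of the 9 members, with an interval from -0.01 to 0.12. The reads of *Tjp1* rest on an uncertain length and may be wrong by a whole factor, which would change this interval.

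The 2 junctional adhesion molecules of the list, immunoglobulin-type proteins of the tight junction, differed in how far apart the libraries stood. *F11r* (ENSMUSG00000038235), at chr1:171437535-171464603 on the plus strand, had 193 RPKM in control and 214 RPKM in mutant testes, from 4630 and 5005 reads. Its log2 ratio was 0.15 with an interval from 0.10 to 0.21, above 0. *Jam3* (ENSMUSG00000031990), at chr9:27097384-27155421 on the minus strand, had 85.2 and 87.7 RPKM in the same order, from 1360 and 1358 reads. Its log2 ratio was 0.04, and its interval ran from -0.07 to 0.15. Reads of *Jam3* are uncertain, because 36.2% of its exon bases overlap those of *Gm48796*, an antisense gene. Reads of the pair cannot be told apart without strand, and *Gm48796* is not among the deposited entries, so its own level is not known. The reads of *Jam3* also rest on a length of 801 bases, where the mean annotated transcript has 1073. They may be wrong by a whole factor.

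*Gja1* (ENSMUSG00000050953), at chr10:56377330-56402513 on the plus strand, encodes the main connexin of Sertoli cell gap junctions. Its level was 169 RPKM in control and 195 RPKM in mutant testes, from 6962 and 7812 reads. *Gja1* had the highest log2 ratio of the 9 on the RPKM + 1 scale, 0.21, with an interval from 0.16 to 0.26. Its reads rest on an uncertain length and may be wrong by a whole factor, which would change this interval. The SD of log2 ratios was 0.152 over the 1142 genes tested from 100 RPKM upwards, and 3.24% of these genes had a higher log2 ratio than *Gja1*, and 7.71% a higher one than *F11r*.

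*Cdh2* (ENSMUSG00000024304), at chr18:16588877-16809246 on the minus strand, encodes N-cadherin, the adhesion protein of the basal adherens junction between Sertoli cells. It had 22.1 RPKM in control and 25.4 RPKM in mutant testes, from 1757 and 1964 reads. The log2 ratio was 0.20 with an interval from 0.11 to 0.30. Among the 4869 genes tested with a mean RPKM from 20 to 100, 8.32% had a higher log2 ratio than *Cdh2*, and the SD over genes was 0.167. N-cadherin is also made by germ cells, and the values do not say which cells the reads came from.

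**Figure D2:**
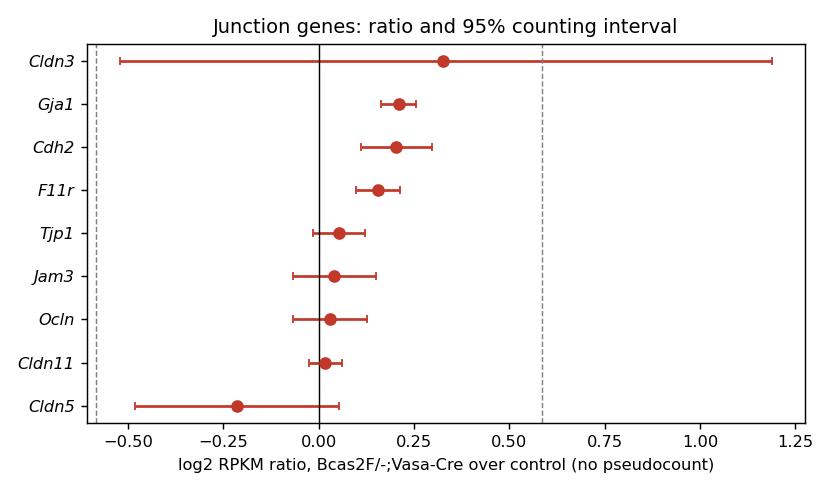
Log2 RPKM ratio of mutant over control, without a pseudocount, for the 9 junction genes, 1 library per genotype. Bars are 95% Clopper-Pearson intervals for counting error, and dashed lines mark 1.5-fold. The intervals of Gja1, Cdh2 and F11r lie above 0, whereas that of Cldn3 runs from -0.52 to 1.19. The reads behind the intervals of Gja1, Jam3 and Tjp1 may be wrong by a whole factor.

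The 9 members had a median log2 ratio of 0.05, against 0.015 over all genes tested. Their values ran from -0.19 to 0.21, and 8 of 9 were above 0, where 53.7% of all genes tested were. *Cldn3* is among the 8, and it reached the minimum mean only through its mutant value, so the filter favoured its sign. The count is a description. The counting interval lay above 0 in 3 members, held 0 in 6 and lay below 0 in 0. This split is not settled, because the reads of *Gja1*, *Jam3* and *Tjp1* may be wrong by a whole factor, which would change their intervals. The intervals of *Gja1* and *F11r* did not overlap that of *Cldn11*, although these are the 3 most abundant members. Set against genes of their own range of levels, *Cldn11*, *Jam3*, *Tjp1* and *Ocln* were in the middle, with 37.6%, 41.3%, 38.5% and 44.8% of genes at a higher log2 ratio. The share was 85.9% for *Cldn5* and 28.8% for *Cldn3*.

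**Figure D3:**
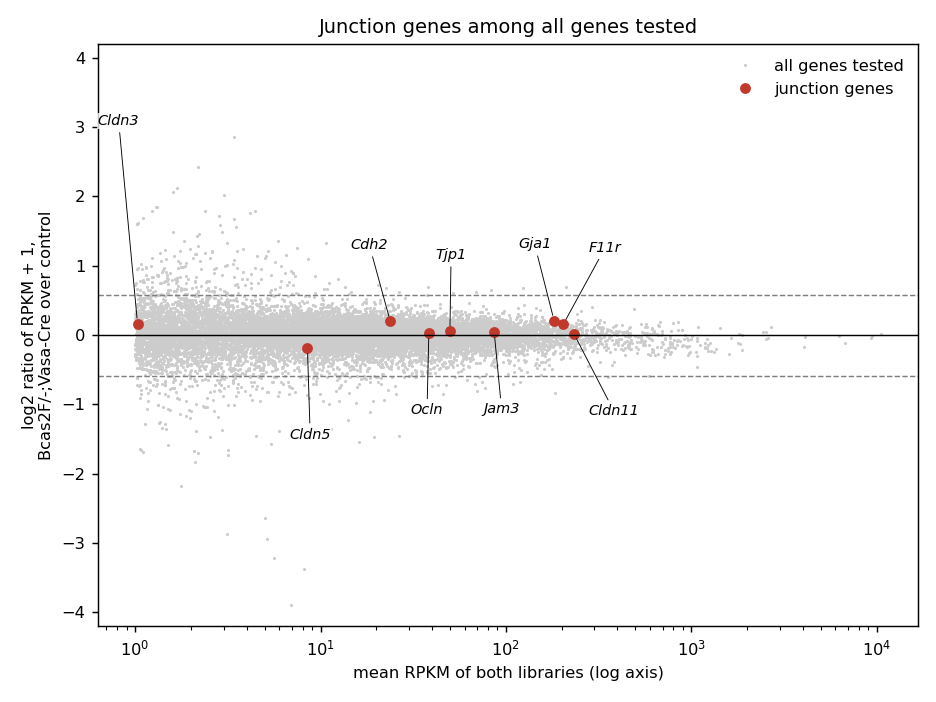
Log2 ratio of RPKM + 1 in mutant over control against mean RPKM (log axis) for all 14831 genes tested (grey) and the 9 junction genes (red), 1 library per genotype. Dashed lines mark 1.5-fold, and the members lie from -0.19 to 0.21, inside the lines.

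The labelled tissue showed the cells that build the barrier. Of 11 Sertoli cell markers, 10 reached a mean RPKM of at least 1, among them *Sox9*, *Wt1* and *Amh*, and *Rhox5* was listed at 0 in both libraries. All 10 had log2 ratios above 0, from 0.004 for *Fshr*, the receptor of follicle-stimulating hormone, to 0.36 for *Amh*, the Müllerian duct inhibiting hormone, which had 134 RPKM in control and 172 RPKM in mutant testes. Their median was 0.20, and their summed levels were 2828 and 3072 RPKM. The values of *Gja1*, *Cdh2* and *F11r*, at 0.21, 0.20 and 0.15, stood near that median, and those of *Cldn11*, *Ocln*, *Jam3* and *Tjp1*, at 0.02 to 0.05, stood below it. In the same libraries, 9 of 10 spermatogonia markers were below 0, with a median of -0.38 and summed levels of 910 and 698 RPKM, and 4 of 4 meiosis prophase I markers were below 0, with a median of -0.47 and summed levels of 84.1 and 54.2 RPKM. *Stra8*, which starts meiosis, was lowest in the former, with 87.2 and 56.8 RPKM, and *Smc1b*, a meiotic cohesin gene, in the latter, with 25.6 and 11.3 RPKM. The highest ratios of these lists were 0.20 for *Sohlh2*, a transcription factor gene of spermatogonia, and -0.30 for *Sycp3*, a gene of the chromosome axis in meiosis. The study's replicated RT-PCR of P9 testes found *Ddx4*, *Dazl*, *Kit*, *Sohlh1*, *Sohlh2* and *Stra8* mRNA similar in both genotypes. It found *Dmc1*, *Sycp1*, *Sycp3* and *Smc1b* mRNA significantly lower in mutant testes. The lower spermatogonia values here rest on 1 library per genotype. Medians were 0.20 for 6 Leydig cell markers, -0.06 for 6 peritubular myoid markers, -0.16 for 4 macrophage markers and 0.09 for 4 duct epithelium markers. Leydig cell markers ran from -0.17 for *Hsd3b1* to 0.68 for *Cyp17a1*, a steroid synthesis gene with 94.8 and 152 RPKM. Myoid markers ran from -0.13 for *Acta2* to 0.09 for *Cnn1*, macrophage markers from -0.23 for *Csf1r* to 0.10 for *Mrc1*, and duct epithelium markers from -0.27 for *Epcam* to 0.35 for *Krt7*. The part of these shifts in the members' values was not tested.

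The wider junction machinery was read from 5 lists with 112 genes, of which 76 reached a mean RPKM of at least 1. Their median log2 ratio was 0.04, with 48 above 0 and 28 below, and 1 of the 76 was past 1.5-fold, on the lower side. Over all genes tested, 53.7% were above 0, 1.69% were past 1.5-fold on the lower side and 1.57% on the higher side. The single call is therefore no result about the lists. Among 29 other membrane proteins of the tight junction, 13 were tested, and 11 of these were above 0. The median of the 13 was 0.18, which came to 0.078 without a filter on mean RPKM and to 0.112 with a minimum of 5. *Cldn15* (0.930 and 1.38 RPKM in control and mutant testes), among the 11, reached the minimum mean only through its mutant value. *Jam2*, another junctional adhesion molecule of the testis and the most abundant of the 13, had 65.4 RPKM in control and 83.0 RPKM in mutant testes. Its log2 ratio was 0.34, and its interval ran from 0.27 to 0.41. The lowest ratio was that of *Marveld2*, which encodes tricellulin, the protein of contacts where several cells meet, at 10.9 and 9.22 RPKM (log2 ratio -0.22), and the highest that of the claudin gene *Cldn23*, at 1.74 and 2.79 RPKM (0.47).

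Scaffold and polarity genes stood close to 0. Of 22 listed, 21 were tested, 13 were above 0 and none was past 1.5-fold, with a median of 0.03. The kinase gene *Prkci*, whose product acts with the PAR polarity proteins, was the most abundant, with 117 RPKM in both libraries. *Pard6a*, a PAR polarity gene, had 5.89 and 4.44 RPKM (log2 ratio -0.34), and the scaffold gene *Magi2* had 1.83 and 2.40 RPKM (0.27).

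Of 21 other connexin and pannexin genes listed, 7 were tested, and 6 of these were below 0. The median of the 7, -0.16, came to -0.06 without a filter on mean RPKM. *Gja1* itself was above 0. *Gjc1*, the most abundant of the 7, had 32.6 RPKM in control and 29.1 RPKM in mutant testes. Its log2 ratio was -0.16, and its interval ran from -0.28 to -0.05. *Gja6*, an X-linked connexin gene known from Sertoli cells, was the gene of the wider lists past 1.5-fold at a pseudocount of 1, with 1.57 RPKM from 63 reads in control and 0.564 RPKM from 22 reads in mutant testes. It reached the minimum mean of 1 RPKM only through its control value, so its place past the threshold is a description and says nothing of the list. Its log2 ratio was -0.72 on the RPKM + 1 scale and -1.47 without a pseudocount, with an interval from -2.25 to -0.75.

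Of the cadherin, catenin, nectin and desmosome genes, 19 of 22 were tested, with 13 above 0, none past 1.5-fold and a median of 0.03. *Ctnnb1*, which encodes beta-catenin, the partner of the cadherin tail, had 595 and 602 RPKM, a log2 ratio of 0.02 with an interval from -0.02 to 0.05. *Cdh1*, which encodes E-cadherin, a cadherin of epithelia and undifferentiated spermatogonia, had 3.0 and 2.10 RPKM (log2 ratio -0.37), and the desmosomal plaque gene *Dsp* had 1.01 and 1.65 RPKM (0.40). Of the ectoplasmic specialization genes, which serve the actin-rich junctions of Sertoli cells, 16 of 18 were tested, with 10 above 0, none past 1.5-fold and a median of 0.05. *Itgb1*, an integrin subunit gene, had 306 and 333 RPKM (log2 ratio 0.12), the kinase gene *Ptk2* had 36.4 and 32.9 RPKM (-0.14), and *Espn*, which encodes the actin-bundling espin, had 41.3 and 50.9 RPKM (0.30). *Ilk*, an integrin-linked kinase gene of most cells, was listed at 0.0502 and 0 RPKM, from 1 and 0 reads. Overlap with other genes was checked for the members only. Whether the values of *Ilk* and *Rhox5* reflect RNA or the counting of reads was not tested.

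**Figure D4:**
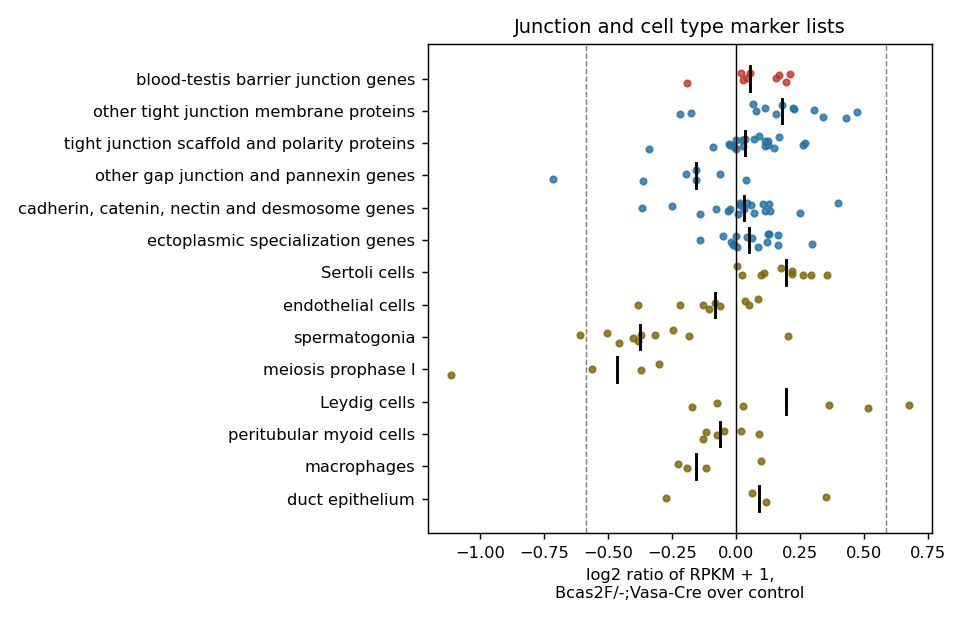
Log2 ratio of RPKM + 1 in mutant over control for each gene tested in the 9 junction genes (red), the 5 wider junction lists (blue) and the 8 cell type marker lists (brown), 1 library per genotype, with vertical position inside a list spread for display. Black bars are list medians and dashed lines mark 1.5-fold, and the medians run from -0.47 for meiosis prophase I to 0.20 for Sertoli cells.

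The order of levels also rests on the gene lengths behind RPKM. The lengths that the RPKM steps gave came within 2% of the mean annotated transcript length for 6 members, and *Gja1* (2070 bases), *Jam3* (801) and *Tjp1* (3559) were farther from it. The longest annotated transcripts of *F11r*, *Gja1* and *Jam3* have 2518, 3889 and 1942 bases, against 1870 for *Cldn11*. Over the longest transcript, a scale chosen after seeing the data, control levels were 228 for *Cldn11*, 92.3 for *F11r*, 89.9 for *Gja1* and 35.2 for *Jam3*, on the RPKM scale. On that scale the order in control was the same for all 9 members, while *Gja1* (104) and *F11r* (103) changed places in mutant testes. The ratios between libraries do not depend on this length.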

How the data were processed

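The series holds 2 samples, whole testes of 9-day-old mice, control or *Bcas2*F/-;*Vasa-Cre*, grouped by the genotype in the labels. The authors trimmed adaptors and dropped poor reads, aligned read pairs with TopHat2 (2.0.9 in the submitters' processing notes, which also name mm10) and counted them with HTSeq. The deposited unit is RPKM. The annotation release was not given in the sources used here. RPKM does not correct for a change in RNA composition.

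Genes were matched to GENCODE M21 (37606 of 39695 entries). The log2 ratio of RPKM + 1, a pseudocount that understates differences of low genes, was taken where the mean RPKM reached 1 (14831 genes). The threshold was 1.5-fold, the lower of the fold thresholds in the study. The study joined it with a p-value cutoff that was not applied here, so its gene counts and those given here are not alike. The library ratio of 1.0304 and both library sizes came from the RPKM steps of 2187 single-transcript genes (1028 agreed on 1 size). Reads were recovered for 173 of 176 listed genes, and the other 3 were at 0. For 6 of the 9 members the length so found was within 2% of the mean transcript length, but the reads of *Gja1*, *Jam3* and *Tjp1* rest on another length and may be wrong by a whole factor, which would change their intervals but not their RPKM.

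The named genes were all members, *Bcas2*, in each wider list those past 1.5-fold and those with the highest mean RPKM and the lowest and highest ratio, and in each marker list the lowest and highest ratio. A gene that this rule names is not reported here. Other genes, such as *Ilk*, *Rhox5*, *Crb3*, *Gjb2*, *Cldn13* and *Cldn15*, were named after their values were seen. Alternatives were other pseudocounts, scalings and filters, and the longest transcript as the length. Members and lists were chosen with earlier results of these data known. Scripts ran on Python 3.11.15. They used pandas 2.3.3 and numpy 2.4.6 for the values, scipy 1.17.1 for the intervals and matplotlib 3.10.9 for plots.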

Additional observations from a re-analysis of the deposited data

How the results depend on the processing

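The median log2 ratio of the 9 members ran from 0.037 to 0.081 over the 6 alternatives, and the counts past 1.5-fold stayed at 0 in both directions. No member's log2 ratio changed sign over its alternatives, but *Cldn11* came to 0.002 with the median of all genes tested set to 0. Only that setting and the rescaling of RPKM could change a member's sign. Another pseudocount keeps the sign of a gene, and a filter leaves its ratio as it is. *Cldn3* ran from 0.150 to 0.324 and was left out by the filter at a mean RPKM of at least 5. With 23 and 28 reads it is the member that depth limits most. The list medians kept their sign over the 6 alternatives, from 0.078 to 0.232 for other tight junction membrane proteins, 0.019 to 0.062 for scaffolds, -0.204 to -0.063 for gap junction genes, 0.017 to 0.060 for cadherin and desmosome genes and 0.036 to 0.080 for ectoplasmic specialization genes. With a pseudocount of 0.1 or 0.01, the past-threshold counts were 2 higher among the other tight junction membrane proteins (*Cldn23* and *Crb3* at 0.1), 2 lower among the gap junction genes (*Gja6* and *Gjb2*) and 1 higher among the cadherin and desmosome genes (*Dsp*). Without a filter, 1 tight junction gene, *Cldn13*, was lower, and with a mean RPKM of at least 5, 0 gap junction genes were. Over all genes tested, 251 were lower and 233 higher. These became 457 and 454 with a pseudocount of 0.1, 485 and 491 with 0.01, 468 and 511 without a filter, and 104 and 46 with a mean RPKM of at least 5, and 356 were lower and 434 higher with RPKM rescaled to 1000000 per library. A smaller pseudocount understates the differences of low genes less, and a filter leaves fewer or more genes. RPKM summed to 639434 in control and 627010 in mutant testes, so rescaling raised the values against the same pseudocount and minimum. How much each of these gave was not tested. No paired analysis was possible because each genotype had 1 library.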
